A study of Mus musculus with 6 samples.

Results

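A group of 10 genes of lipid handling and capillary endothelium was followed in mouse lung. The genes were Cd300lg, Rbp7, Gpihbp1, Lpl, Cd36, Fabp4, Fabp5, Aqp7, Meox2 and Tcf15. They were picked by symbol from the 47069 genes of the count table, with the difference between Zpbp2 mutant (KO) and wild type (WT) lungs already known, so what follows on that difference is a description of the 10 genes and no p-value is given for any of them. The lungs came from adult C57BL/6J mice killed at ZT10, that is 10 h after lights on. The 3 KO mice (KO4, KO5 and KO6) lack the 5′ part of Zpbp2 with some of its promoter and enhancer. They are of the strain B6.129S7-Zpbp2tmZuk/Mmjax, kept on the C57BL/6J background. The 3 WT mice (WT4, WT5 and WT6) were C57BL/6J animals bred in the same colony. Labels give no sex, and Xist, the RNA of the inactive X chromosome, had between 15033 and 47369 counts in each of the 6 libraries. The Y-linked genes Ddx3y, Eif2s3y, Kdm5d and Uty had at most 1 count each outside KO5, and 9, 2, 7 and 6 counts in KO5. That is the pattern of female mice, with a trace of Y-linked RNA in KO5 whose source was not tested. Whole lung was sequenced, so fewer cells of a type and less RNA per cell cannot be told apart.

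Triglyceride-rich lipoproteins in blood are opened at the capillary surface by lipoprotein lipase (Lpl), which GPIHBP1 carries across the endothelial cell and holds at its luminal face. The freed fatty acids enter cells through CD36 and are ferried inside by small binding proteins such as FABP4 and FABP5, while glycerol passes through channels such as AQP7. RBP7 is a retinol-binding protein of the same family of intracellular lipid carriers, CD300LG is the CD300 receptor of capillary endothelium, and MEOX2 and TCF15 are transcription factors known to act as a pair on fatty acid uptake in endothelium of heart and skeletal muscle. Several of these genes have a further home in the lung: Lpl, Fabp4 and Cd36 are active in alveolar macrophages and fat cells, and Fabp5 in type 2 alveolar cells.

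In KO lungs Cd300lg and Rbp7 stood lower than in WT lungs in every mouse, whereas the lipase, its anchor, CD36, both fatty acid-binding proteins, the glycerol channel and the transcription factor pair had overlapping values. The log2 fold change (KO minus WT) was -1.68 for Cd300lg and -2.28 for Rbp7, and it lay between -0.14 and 0.25 for the other 7 genes tested. Of the 10 genes, 9 passed the filter on low counts, and Aqp7 did not. Rbp7 passed it only through the WT mice, in which it is higher, so its inclusion in the test was not independent of its difference. In the fit across 17037 genes, 2 of the 9 had an adjusted p of at most 0.05, both lower in KO mice, against 2.67% of all genes tested that were called lower. Groups did not overlap for the same pair, against 15.6% of all genes tested that lay wholly lower in KO mice. Since this contrast was in view when the genes were chosen, nothing is read from these counts. The median log2 fold change was 0.03 over the 9 genes and 0.00 over all genes tested.

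**Figure D1:**
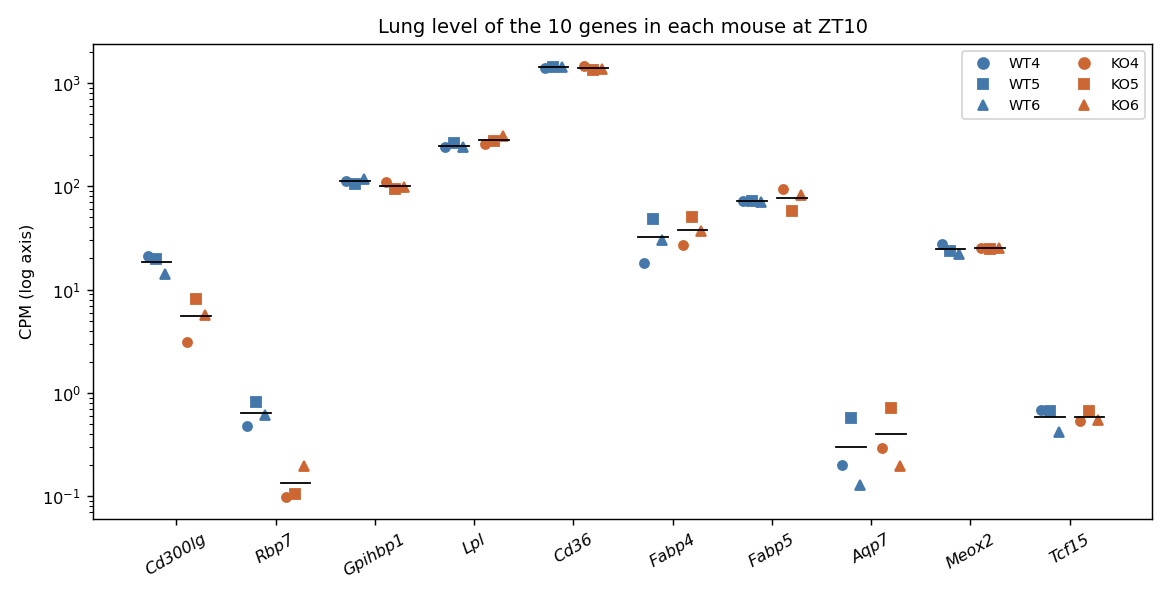
Level of each of the 10 genes in CPM (counts scaled to library size, log axis) in the 3 WT mice (blue) and the 3 KO mice (orange), with symbols for the single mice and a black line at the group mean. Cd300lg and Rbp7 are the only pair whose orange points all lie under the blue ones, while Cd36 lies between 1321 and 1468 CPM in all mice.

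Counts were scaled to library size (CPM, with sizes adjusted by the TMM method), and the libraries held between 19981428 and 46796908 counts. Zpbp2 itself had at most 2 counts in any library, at or under the limit of 3 taken as detection, so it could not check the genotype labels. A level compared between genes needs the length of the transcripts, and is given as TPM, the count divided by the exon length of the gene and scaled to the same total in each library. On that scale Cd36 led with a median of 1166 TPM over the 6 mice, followed by Gpihbp1 at 122.8 TPM, Lpl at 73.0 TPM, Fabp5 at 60.1 TPM, Meox2 at 31.7 TPM, Fabp4 at 21.3 TPM and Cd300lg at 11.8 TPM. Tcf15 had a median of 1.85 TPM, Rbp7 of 1.41 TPM and Aqp7 of 0.259 TPM. These medians pool both groups: Cd300lg had 14.2 to 22.8 TPM in WT mice and 3.32 to 9.34 TPM in KO mice, and Rbp7 had 2 to 3.39 TPM in WT mice and 0.402 to 0.815 TPM in KO mice. Tcf15 had 1.16 to 2.08 TPM in WT mice, overlapping Rbp7, and 1.62 to 2.17 TPM in KO mice, all above Rbp7. Ranges over the mice overlapped between Lpl and Fabp5, Meox2 and Fabp4, Fabp4 and Cd300lg, Tcf15 and Rbp7, and Rbp7 and Aqp7, and did not overlap between the other neighbours in this order.

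Cd300lg (ENSMUSG00000017309) lies on the plus strand of chromosome 11 at chr11:102041509-102055620 in the GRCm38 build. It had 521, 409 and 443 counts in the WT mice 4, 5 and 6, and 63, 385 and 114 counts in the KO mice 4, 5 and 6. Scaled to depth these were 21.0, 19.6 and 14.3 CPM in WT mice and 3.08, 8.08 and 5.63 CPM in KO mice. All KO values were under all WT values, with KO4 the lowest and KO5, the most deeply sequenced library, the highest of its group. WT mice averaged 18.3 ± 3.51 CPM and KO mice 5.6 ± 2.5 CPM (SD, n = 3 each), a fitted level 3.2-fold lower in KO mice (log2 fold change -1.68, standard error 0.323). Relative spread was wider in KO mice, with an SD of 44.7% of the mean against 19.2% in WT mice. Without any single mouse the log2 fold change ran from -2.07 to -1.40.

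Rbp7 (ENSMUSG00000028996), on the minus strand at chr4:149449687-149454978 in GRCm38, was counted 12, 17 and 19 times in WT4, WT5 and WT6 and 2, 5 and 4 times in the 3 KO mice in the same order. The count of KO4 is under the detection limit of 3. Scaled to depth they were 0.483, 0.815 and 0.615 CPM in WT mice and 0.0978, 0.105 and 0.198 CPM in KO mice, so the highest KO value stayed under the lowest WT value. WT mice averaged 0.637 ± 0.167 CPM and KO mice 0.133 ± 0.0556 CPM (SD, n = 3 each). The fitted log2 fold change was -2.28 with a standard error of 0.402, and it lay between -2.57 and -2.06 with single mice left out. Added over mice, 11 KO counts stood against 48 WT counts, a depth-scaled ratio of 0.199. Its exact 95% interval, from 0.0931 to 0.388, covers counting error only and leaves out the spread between mice. Since Rbp7 was picked with this difference known, the interval is no test of it and nothing is read from it.

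The stretch before the start of Rbp7 is shown because Rbp7 differed most between the groups, beside that of Cd36, the most abundant gene of the group and one with nearly equal levels. RefSeq promoter windows in the GRCm38.p6 build matched 4 of the 10 genes (Rbp7, Cd36, Aqp7 and Meox2), and the 250 bases before the start were searched on both strands for AGGTCA, the half-site of nuclear receptors such as PPARs, for TAATTA, a core of homeobox factors, and for CANNTG, the E-box of bHLH factors, of which CACGTG is 1 form. Matches are in capitals, and the windows are chr4:149454969-149455218 for Rbp7 and chr5:17835897-17836146 for Cd36, both read on the minus strand. The RefSeq start used for Cd36 lies inside the gene as placed by GENCODE, downstream of its first start.
Rbp7: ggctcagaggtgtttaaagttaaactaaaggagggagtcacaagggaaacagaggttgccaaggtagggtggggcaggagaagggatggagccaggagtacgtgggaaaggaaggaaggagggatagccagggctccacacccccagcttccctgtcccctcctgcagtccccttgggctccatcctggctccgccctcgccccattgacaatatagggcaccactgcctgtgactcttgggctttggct
Cd36: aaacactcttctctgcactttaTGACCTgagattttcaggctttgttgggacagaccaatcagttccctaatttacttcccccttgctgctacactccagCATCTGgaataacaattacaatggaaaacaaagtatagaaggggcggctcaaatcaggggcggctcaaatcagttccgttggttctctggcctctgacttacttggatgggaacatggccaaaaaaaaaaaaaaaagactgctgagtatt
None of these letters occurred in the window of Rbp7. The window of Cd36 held 1 half-site at -228 and 1 E-box at -150 from the start. That of Meox2 held 1 E-box, and the windows of Aqp7, which has 2 starts, each held at least 1 half-site and 2 E-boxes. Over 32851 promoter windows of equal length, 14.0% held the half-site, 66.2% an E-box, 6.02% the form CACGTG and 4.84% the homeobox core.

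Gpihbp1 (ENSMUSG00000022579, chr15:75596628-75599481, plus strand) and Lpl (ENSMUSG00000015568, chr8:68880491-68907448, plus strand) form the lipase and its capillary anchor. Gpihbp1 measured 113.1, 104.2 and 116.5 CPM in WT4, WT5 and WT6 and 109.7, 94.5 and 98.0 CPM in the KO mice, with KO4 above WT5. Its log2 fold change was -0.14 (standard error 0.0726), from 111.3 ± 6.35 CPM in WT mice and 100.7 ± 7.94 CPM in KO mice (SD, n = 3 each). Lpl measured 239.8, 261.3 and 237.9 CPM in WT mice and 253.9, 271.6 and 307.7 CPM in KO mice, where only KO4 fell inside the WT range. The log2 fold change of Lpl was 0.17 (standard error 0.0819), from means of 246.3 ± 13 and 277.7 ± 27.5 CPM (SD, n = 3 each). Gpihbp1 CPM amounted to between 39.9% and 49.0% of Lpl CPM in WT mice and between 31.9% and 43.2% in KO mice, so the ratio overlapped too.

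Cd36 (ENSMUSG00000002944, chr5:17781690-17888801, minus strand), the receptor through which fatty acids enter capillary cells, was the steadiest gene of the group. Its values were 1405, 1410 and 1409 CPM in WT mice and 1468, 1321 and 1372 CPM in KO mice, with KO mice on either side of the WT range. The log2 fold change of -0.02 (standard error 0.0632) stayed between -0.07 and 0.01 when single mice were left out. With 27796 to 62992 counts a mouse, Cd36 was read more than any other gene of the group.

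Fabp5 (ENSMUSG00000027533, plus strand) and Fabp4 (ENSMUSG00000062515, minus strand) lie 187 kb apart on chromosome 3, at chr3:10012548-10016607 and chr3:10204088-10208576. Fabp5 measured 71.6, 72.1 and 71.1 CPM in the WT mice and 94.0, 57.1 and 81.7 CPM in KO4, KO5 and KO6. The SD was 0.516 CPM in WT mice and 18.8 CPM in KO mice, whose values lay on both sides of WT, and the log2 fold change was 0.11 (standard error 0.163). Fabp4 measured 18.2, 48.4 and 30.3 CPM in WT mice and 27.3, 50 and 36.8 CPM in KO mice, the widest WT spread of any gene above 1 CPM in the group (SD 47.1% of the mean). Its log2 fold change of 0.25 (standard error 0.355) ran from -0.04 to 0.65 without single mice, so the sign was not fixed. Fabp4 CPM came to between 25.4% and 67.2% of Fabp5 CPM in WT mice and to between 29.0% and 87.5% in KO mice.

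Aqp7 (ENSMUSG00000028427, chr4:41033074-41048139, minus strand) had 5, 12 and 4 counts in WT mice and 6, 34 and 4 counts in KO mice, too few for the test. In CPM these were 0.201, 0.575 and 0.129 in WT mice and 0.293, 0.713 and 0.198 in KO mice, so WT5 and KO5 stood above the rest of both groups.

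Meox2 (ENSMUSG00000036144, chr12:37108540-37179534, plus strand), the homeobox factor of the pair, measured 27.5, 23.7 and 22.1 CPM in WT mice and 25.3, 24.8 and 25.3 CPM in KO mice. All KO values were inside the WT range, and the log2 fold change was 0.04 (standard error 0.0891). Its partner Tcf15 (ENSMUSG00000068079, chr2:152143561-152149097, plus strand) was near the limit of detection, with 17, 14 and 13 counts in WT mice and 11, 32 and 11 counts in KO mice. In CPM this was 0.684, 0.671 and 0.420 CPM against 0.538, 0.671 and 0.543 CPM. The log2 fold change of 0.03 had a standard error of 0.286, wider than that of Meox2, and few counts lie behind it.

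**Figure D2:**
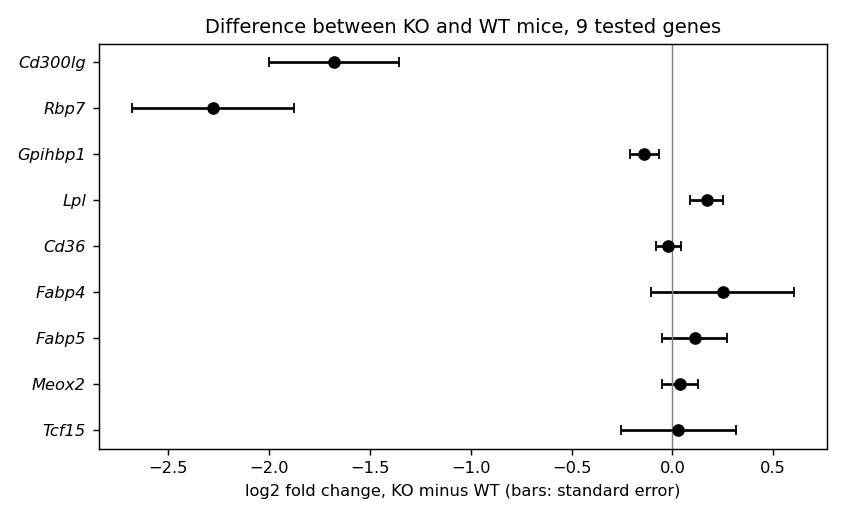
Log2 fold change (KO minus WT) of the 9 tested genes, with bars of 1 standard error from the edgeR fit. Rbp7 at -2.28 and Cd300lg at -1.68 lie far to the left, and the other 7 genes lie between -0.14 and 0.25.

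The level of endothelial RNA in the lungs was followed with 18 genes that mark endothelium in general. Among them are Pecam1 and Cdh5, which encode adhesion proteins of endothelial junctions. Such a level does not count endothelial cells, and it cannot show a change in 1 subtype of them. Pecam1 had a log2 fold change of -0.14 (edgeR, adjusted p = 0.239) and Cdh5 of -0.07 (edgeR, adjusted p = 0.608). Added up, the 18 genes gave 7435 to 7911 CPM in WT mice and 6745 to 8074 CPM in KO mice, ranges that overlap, and their median log2 fold change was -0.12. Of the 18, 13 had a log2 fold change below 0 and 5 above, and 1 was called, lower in KO mice. At an unadjusted p of at most 0.05, 2 rose and 5 fell. DESeq2 called 0 higher and 4 lower, and edgeR's exact test 0 higher and 1 lower. Relative to this sum, Cd300lg came to 2.65, 2.54 and 1.93 CPM per 1000 endothelial CPM in WT mice and to 0.381, 1.20 and 0.798 in KO mice, and the groups stayed apart. Rbp7 came to 0.0611, 0.106 and 0.0827 per 1000 endothelial CPM in WT mice and to 0.0121, 0.0156 and 0.0280 in KO mice. On the same scale Gpihbp1 measured 14.5 ± 1.09 in WT mice and 13.8 ± 0.220 in KO mice, and Cd36 measured 183.4 ± 5.96 and 190.8 ± 7.73 (SD, n = 3 each). Cd300lg was between 12.3% and 18.8% of the CPM of Gpihbp1, the capillary anchor of the lipase, in WT mice and between 2.81% and 8.54% in KO mice. Whether the RNA of both genes came from the same cells was not tested.

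**Figure D3:**
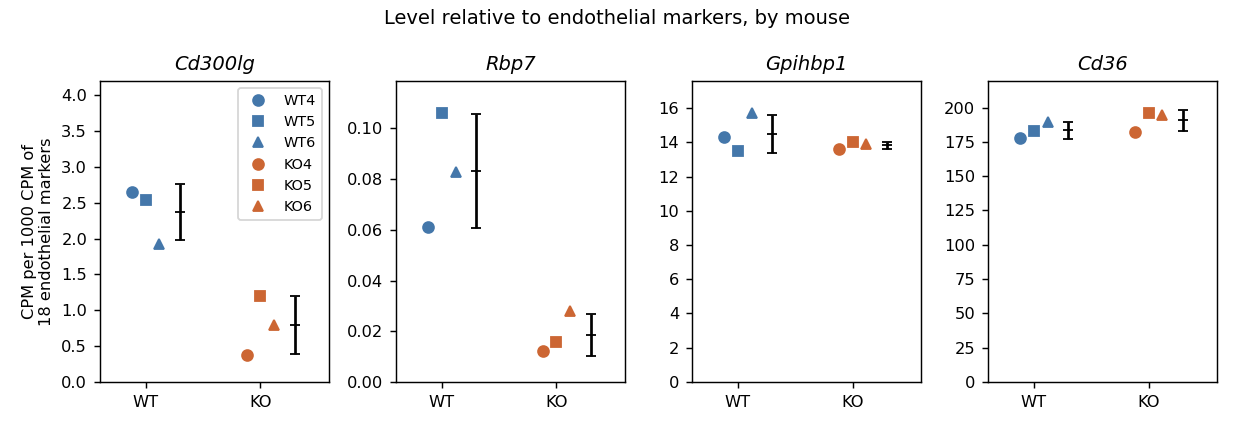
Level of 4 genes per 1000 CPM of 18 summed endothelial markers, in WT mice (blue) and KO mice (orange), with the mean and SD (n = 3) as black bars and every axis starting at 0. Cd300lg and Rbp7 stay apart between the groups, with KO means of 0.792 and 0.0186, while Gpihbp1 and Cd36 overlap.

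Subtypes of endothelium were followed with 5 further lists, and over all 6 endothelial lists 53 genes were tested, of which 1 rose and 2 fell (of all genes tested, 3.72% were called higher and 2.67% lower). Glp1r, a marker of general capillary cells that encodes the GLP-1 receptor, rose (log2 fold change 0.57, edgeR adjusted p = 0.0227). Prx, a marker of the gas-exchange capillary cells called aerocytes, fell (log2 fold change -0.62, edgeR adjusted p = 0.0135), and Cldn5, a tight junction protein, fell by 0.31 on the log2 scale (edgeR, adjusted p = 0.0362). Each of the 10 aerocyte markers had a log2 fold change below 0, with a median of -0.35, and 1 of the 10 passed the test. Their summed level was 2905, 2939 and 2705 CPM in the WT mice 4, 5 and 6 and 1971, 2466 and 2505 CPM in the KO mice, so the groups did not overlap. KO4 was lowest, as for Cd300lg, but KO5 lay under KO6, the reverse of their order for Cd300lg. A large part of the sum came from Emp2, at 1314 to 1386 CPM in WT mice and 1088 to 1184 CPM in KO mice. Of the 10 markers, 5 lay wholly lower in KO mice (15.6% of all genes tested lay so). The part of aerocytes in the level of Cd300lg was not tested. Medians were 0.09 over 8 general capillary markers, -0.07 over 6 arterial, -0.12 over 6 venous and 0.09 over 6 tested lymphatic markers, and the last 3 lists held no call at an adjusted p of at most 0.05. At an unadjusted p of at most 0.05 these 3 lists held 1 rise and 3 falls, while DESeq2 called 0 arterial, 1 venous and 1 lymphatic marker, all lower, and edgeR's exact test gave the same counts.

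Adipocyte markers varied between lungs, with overlapping groups. The summed level of 12 adipocyte markers was 88.4, 199.2 and 129.3 CPM in WT mice and 97.1, 147.8 and 117.5 CPM in KO mice, highest in WT5 and KO5. These are also the mice with the highest Fabp4 and Aqp7 levels, and WT4, with the lowest sum, had the lowest Fabp4. No adipocyte marker passed the test (0 of 11, with a median log2 fold change of 0.02), against 1 higher and 1 lower at an unadjusted p of at most 0.05, 1 higher by edgeR's exact test and 0 by DESeq2. Adipoq, the adipocyte hormone adiponectin, had a log2 fold change of 0.28 (edgeR, adjusted p = 0.725) and Plin1, a coat protein of lipid droplets, of 0.12 (edgeR, adjusted p = 0.864). The part of fat cell RNA in the levels of Fabp4, Aqp7 and Cd300lg was not tested.

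**Figure D4:**
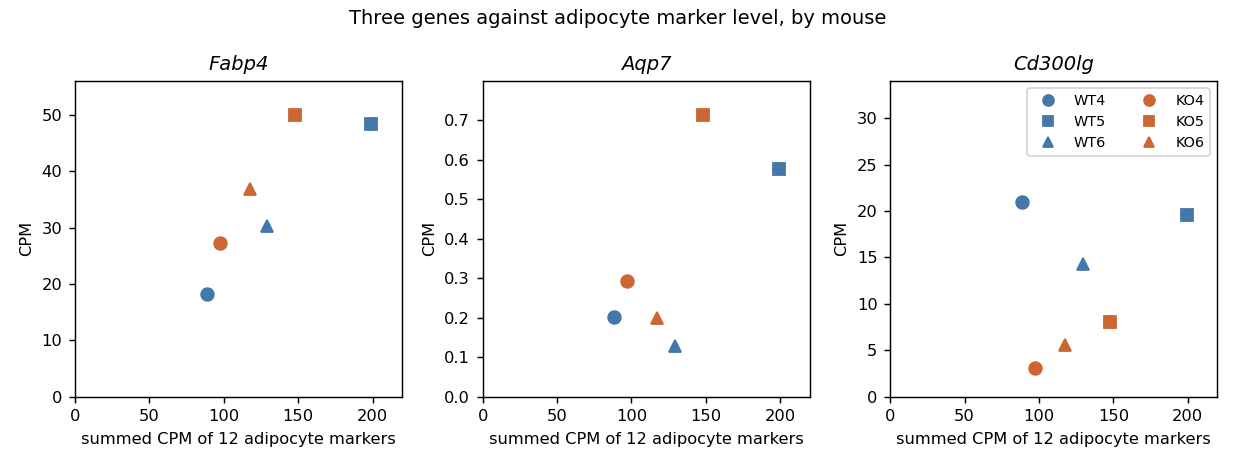
Fabp4, Aqp7 and Cd300lg (CPM) against the summed CPM of 12 adipocyte markers in the 3 WT mice (blue) and 3 KO mice (orange). Fabp4 and Aqp7 are highest in WT5 and KO5, the mice with sums of 199.2 and 147.8 CPM, and Cd300lg ranges from 3.08 CPM in KO4 to 21 CPM in WT4, the mice with sums of 97.1 and 88.4 CPM.

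Markers of other cell types differed between the same groups of mice. Of 8 monocyte markers 6 rose, for example Cx3cr1, the fractalkine receptor (log2 fold change 1.52, edgeR adjusted p = 0.0118), Ccr2 (0.83, edgeR adjusted p = 0.0176) and Treml4 (1.76, edgeR adjusted p = 0.0246). The summed level of the list ranged from 1700 to 1729 CPM in WT mice and from 1714 to 2046 CPM in KO mice. Most of that sum came from Ace, at 1430 to 1477 CPM in WT mice and 1354 to 1640 CPM in KO mice. The sum therefore says little on the other monocyte markers. For all 8 B cell markers the 3 KO values lay above the 3 WT values (17% of all genes tested lay so), with none past the test in edgeR's quasi-likelihood fit. All 8 had an unadjusted p of at most 0.05, edgeR's exact test called 8 higher and DESeq2 called 6. Their sum was 109.5 to 117.2 CPM in WT mice, 205.2 and 245.1 CPM in KO4 and KO6 and 866.8 CPM in KO5. Of 11 alveolar macrophage markers, 2 rose, Marco (log2 fold change 1.26, edgeR adjusted p = 0.00665) and Itgax (0.60, edgeR adjusted p = 0.0452), and the sum ranged from 629.1 to 972.7 CPM in WT mice and from 826.5 to 1010 CPM in KO mice. Red cell genes fell in 5 of 7 cases, with Hba-a2 at -0.85, Hbb-bs at -0.95 and Hbb-bt at -0.89 (edgeR adjusted p between 0.0137 and 0.0175). Hbb-bs and Hbb-bt are near-identical beta globin genes between which counting can split reads, and Hba-a2 is an alpha globin gene with a near-identical copy of its own. The sum of the red cell list was 2132 to 2281 CPM in WT mice and 1038 to 1414 CPM in KO mice. Among type 1 alveolar markers Rtkn2 fell (log2 fold change -0.40, edgeR adjusted p = 0.0211), 1 of 7. Lists for type 2 alveolar cells (9 genes, median -0.13), fibroblasts (8 genes, median -0.15), smooth muscle and pericytes (8 genes, median -0.07) and cardiac muscle (8 genes, median -0.34) held no call, against 2, 3, 3 and 0 genes lower at an unadjusted p of at most 0.05 and 2, 1, 3 and 0 called lower by DESeq2. The part of these cell types in the levels of Cd300lg and Rbp7 was not tested.

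The wider pathway was read from 6 lists that leave out the 10 genes, with 99 genes tested, of which 3 rose and 6 fell, against 3.72% and 2.67% of all genes. Their median log2 fold change was -0.03. Around the lipase, 2 of 18 genes rose and none fell: Apoc2, the cofactor that activates LPL, from 0.652 ± 0.170 CPM in WT mice to 3.03 ± 0.863 CPM in KO mice (SD, n = 3 each, log2 fold change 2.19, edgeR adjusted p = 0.0177), and Lipc, hepatic lipase, with 6 to 20 counts in WT mice and 22 to 67 in KO mice (log2 fold change 1.55, edgeR adjusted p = 0.0475). Angptl4, an inhibitor of LPL, had a log2 fold change of -0.17 (edgeR, adjusted p = 0.754). In fatty acid entry and trafficking, 1 of 22 fell and none rose: Slc27a4, a fatty acid transport protein, went from 35.9 ± 0.671 to 28.8 ± 0.827 CPM (SD, n = 3 each, log2 fold change -0.32, edgeR adjusted p = 0.0255). Its relative Slc27a1 had a log2 fold change of -0.02 and Fabp3, the muscle fatty acid-binding protein, of -0.04 (edgeR adjusted p of 0.904 and 0.969).

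PPAR receptors switch on several of the 10 genes in other tissues. Pparg measured 12.8 ± 0.747 CPM in WT mice and 15.7 ± 0.493 CPM in KO mice (SD, n = 3 each), a log2 fold change of 0.29 that did not pass the test (edgeR, adjusted p = 0.0844). Ppara had a log2 fold change of -0.31 (edgeR, adjusted p = 0.319), and Ppard had 31.0 ± 2.71 CPM in WT mice and 30.9 ± 1.90 CPM in KO mice (SD, n = 3 each, edgeR adjusted p = 0.986).

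Retinoid genes, the company of Rbp7, held 2 falls and no rise among 14 tested, with a median log2 fold change of -0.17. Aldh1a1, which makes retinoic acid, went from 1514 ± 161.9 to 1125 ± 74.6 CPM (SD, n = 3 each, log2 fold change -0.43, edgeR adjusted p = 0.0446) and Rarg, a retinoic acid receptor, from 106.1 ± 6.55 to 88.4 ± 3.04 CPM (SD, n = 3 each, log2 fold change -0.26, edgeR adjusted p = 0.0488). Rbp4, the retinol carrier of blood, had a log2 fold change of -0.58 just outside the threshold (edgeR, adjusted p = 0.0510). Of the 13 tested genes for aquaporins and glycerol handling 0 were called, with 2 higher and 3 lower at an unadjusted p of at most 0.05, 1 lower by edgeR's exact test and 2 lower by DESeq2. Aqp1, the water channel of lung capillaries, had a log2 fold change of -0.30 (edgeR, adjusted p = 0.0630).

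Beside Meox2 and Tcf15, 3 of 9 genes for homeobox and bHLH partners fell and none rose. Meox1, the sister gene of Meox2, had 370, 285 and 481 counts in the WT mice and 82, 295 and 99 counts in the KO mice, and fell from 14.7 ± 0.964 to 5.03 ± 1.10 CPM (SD, n = 3 each, log2 fold change -1.53, edgeR adjusted p = 0.0108). Id1 (log2 fold change -0.62, edgeR adjusted p = 0.0246) and Id3 (-0.35, edgeR adjusted p = 0.0261), inhibitors of bHLH factors, fell as well. Whether Meox1 and Meox2 differ in their response was not tested.

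The CD300 relatives of Cd300lg, which are largely receptors of myeloid cells, lay on the other side. All 6 in the table were tested and had a positive log2 fold change, with a median of 1.17, and 4 of the 6 rose, among them Cd300a (1.58, edgeR adjusted p = 0.0156), Cd300lb (1.24, edgeR adjusted p = 0.0171) and Cd300lf (0.88, edgeR adjusted p = 0.0189). Monocyte markers rose in the same mice, and their part in the levels of these receptors was not tested.

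Cd300lg lies 3.48 Mb from the end of Zpbp2 on the same chromosome, and Meox1 starts 147.1 kb from the start of Cd300lg. Distances run between gene starts, taken as the higher coordinate for genes on the minus strand. Within 1 Mb of the start of Cd300lg, 67 other genes were tested, of which 5 fell and 1 rose, against 2.67% of all genes called lower and 3.72% called higher. The share that fell was 7.46%, and the median log2 fold change was -0.07 with 42 genes below 0. Mpp3, a membrane scaffold gene that starts 13 kb away, went from 8.37 ± 0.876 to 4.30 ± 0.367 CPM (SD, n = 3 each, log2 fold change -0.96, edgeR adjusted p = 0.0178). Dusp3, a phosphatase gene 54.5 kb away, went from 296.8 ± 6.11 to 202.2 ± 4.59 CPM (SD, n = 3 each, log2 fold change -0.55, edgeR adjusted p = 0.00665). Arl4d (376 kb away, log2 fold change -0.66, edgeR adjusted p = 0.0268) and Ubtf (278.2 kb away, -0.24, edgeR adjusted p = 0.0445) fell, and Ezh1 (815 kb away, 0.23, edgeR adjusted p = 0.0468) rose. Mpp2, which starts 47 kb away and whose 3′ end lies 1.4 kb past the end of Cd300lg, had a log2 fold change of -0.25 (edgeR, adjusted p = 0.0853), and Sost, 74.5 kb away, of 1.28 (edgeR, adjusted p = 0.188). With 1 mouse left out in turn, Dusp3 was called in 5 of 6 fits, Meox1 in 4, Mpp3 in 3, Arl4d in 2, Ubtf in 1 and Ezh1 in 0. Whether neighbours of Cd300lg were called more often than genes elsewhere was not tested.

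**Figure D5:**
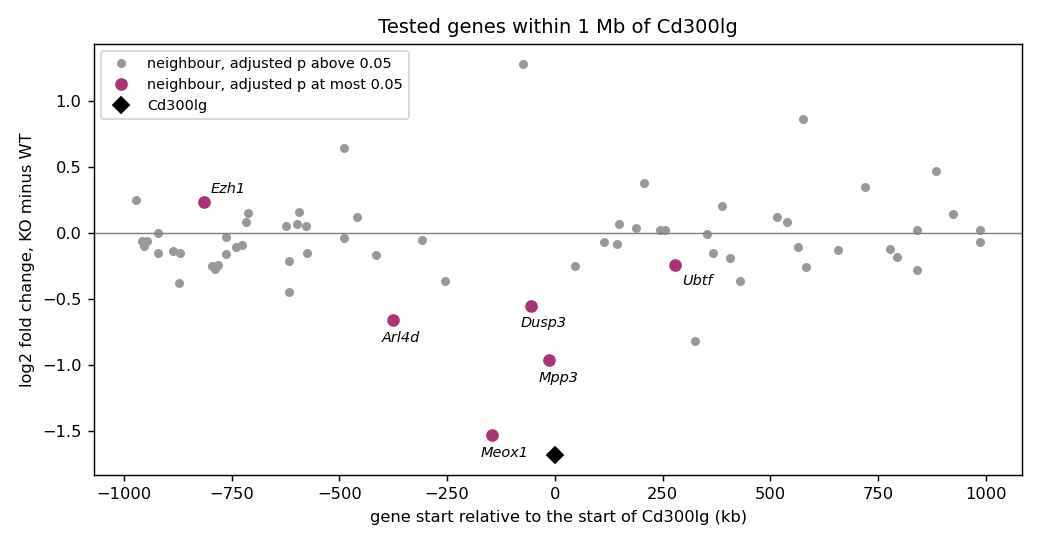
Log2 fold change (KO minus WT) of the 67 tested genes that start within 1 Mb of the start of Cd300lg, against their distance in kb, with genes at an adjusted p of at most 0.05 in purple and Cd300lg as a black diamond. Meox1, Mpp3, Dusp3 and Arl4d lie between 376 and 13 kb to the left of Cd300lg and between -1.53 and -0.55 on the log2 scale.

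Genes with a pattern over the 6 mice nearest to that of Cd300lg were Trim69, Meox1 and Gm12941, whose centred log2 CPM differed from it by a root mean square of 0.321, 0.331 and 0.332. Nearest to Rbp7 were Hsph1, a heat shock protein gene (0.311), Hist1h3d, a histone gene (0.365), and Npr3, the clearance receptor for natriuretic peptides (0.399). In all of these the WT mice lay above the KO mice, which follows from picking them by likeness to 2 genes lower in KO mice. Counts were low for some, at 6 to 31 a mouse for Trim69, 5 to 32 for Gm12941 and 3 to 25 for Hist1h3d.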

How the data were processed

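Lung RNA of 6 mice at ZT10 was measured with stranded mRNA libraries. According to the submitters' processing notes and the methods, the authors trimmed reads (Trimmomatic 0.36), aligned them to GRCm38 (STAR 2.5.3a) and deposited raw counts per gene (HTSeq 0.6.0), without normalization. Annotation release and strand setting are not given in the sources used here.

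Counts of all 47069 genes entered edgeR 4.0.16 (R 4.3.3) with filterByExpr (minimum count 10, minimum total 15), TMM and the quasi-likelihood test of KO against WT, with Benjamini-Hochberg adjustment over 17037 genes. A call is an adjusted p of at most 0.05. TPM used exon lengths of GENCODE M21. In each library 3 counts equal 0.0629 to 0.148 CPM. Nothing says that replicate numbers pair mice. Each p-value sets the group difference against the spread between mice of the same group, as estimated with help from all genes tested.

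The 10 genes, the 24 lists and the tests were chosen with earlier results of these data known. Named beside the 10 are at most 3 called genes per list, 14 set genes, called neighbours of Cd300lg and the nearest patterns. Mpp2, Sost, Ace and the Y-linked genes were named after their values were seen. Some genes under this rule are not reported here. Alternatives were other scalings, filters, edgeR's exact test, DESeq2 1.42.0, a replicate block, and leaving out single mice.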

Additional observations from a re-analysis of the deposited data

How the results depend on the processing

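Over the scalings, filters, tests and left-out mice that were run, each fitted value of Cd300lg and Rbp7 stayed below 0, and none of the 9 fold changes moved by more than 1 SD between mice. Those of Cd36, Fabp4, Fabp5, Meox2 and Tcf15 changed sign when single mice were left out. Called members numbered 2, but 1 with at least 10 counts in every library, 1 with DESeq2, which gave Rbp7 no adjusted p, 0 with the replicate block and 0 to 2 with 1 mouse left out. They were 0 without WT4, WT5, WT6 or KO6, and 1 without KO5. Genes called higher and lower (634 and 455) were 1102 and 811 with DESeq2, 30 and 36 with the replicate block, and 0 to 797 and 1 to 481 with 1 mouse left out, lowest without WT5 (0 and 1) and next without WT6 (25 and 38) and KO6 (74 and 43). Pathway genes (3 higher, 6 lower) were 6 and 10 with DESeq2, 0 and 0 with the block, and 0 to 2 and 0 to 8 without single mice. Endothelial genes (1 higher, 2 lower) had 4 lower with no filter, 4 with the exact test, 8 with DESeq2, 0 higher and 1 lower with the block, and 0 to 1 and 0 to 7 without single mice. Neighbours of Cd300lg (1 higher, 5 lower) had 2 higher with DESeq2, 0 and 1 with the block, and 0 to 1 and 0 to 6 without single mice. Uncalled genes changed sign: Ppard to 0.00 with upper-quartile factors, and without single mice Ppard ran from -0.06 to 0.07, Angptl4 from -0.43 to 0.10, Slc27a1 from -0.10 to 0.06, Fabp3 from -0.63 to 0.23, Adipoq from -0.20 to 0.64 and Plin1 from -0.16 to 0.45. The cause was not tested. Deviations from the group means correlated by -0.029, -0.149 and -0.022 between mice numbered 4, 5 and 6. Between mice of unlike number the correlations ran from -0.222 to 0.253. With 3 mice a group, these values cannot show whether mice of the same number were paired. Depth limits Rbp7, Aqp7 and Tcf15, at 2 to 34 counts a mouse.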
